A study of Drosophila melanogaster with 9 samples.

Results

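Guts of Drosophila melanogaster females given agar were compared with guts of females given standard medium, using the 3 libraries labelled with the agar diet and the 3 labelled with standard medium among the 9 libraries of the series. The other 3 libraries came from guts of Oregon R females given 10% glucose. They entered the same model and are used here only where agar is set against glucose. Each library was 1 of 3 biological repeats per diet, made from total RNA of whole guts with a stranded mRNA kit. All 3 groups are adult females of the wild-type strain Oregon R. The sources used here give no age, time on the diet or number of guts per library. Of the 10245 genes in the files, the 8036 with at least 1 RPKM (reads mapped to the gene, divided by its length and by the library's total) in at least 3 of the 9 libraries were tested.

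The adult fly midgut makes its digestive enzymes in enterocytes, which secrete amylases and maltases for starch and sugars, lipases for dietary fat, and trypsin- and chymotrypsin-like proteases for protein. Agar is a gel of seaweed polysaccharide that flies cannot use as food, so it supplies water without sugar, protein or fat, whereas standard medium supplies all 3. The title of the series names a sugar-sensing feedback loop of TGF-beta/activin signaling on digestive enzyme expression, and agar is the diet of the series without sugar. A whole gut also holds visceral muscle, trachea and other cells, and from bulk RNA fewer cells of a type cannot be told apart from less RNA per cell.

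Library totals recovered from the values were 34899709 to 43477728 reads on agar and 43851820 to 48389188 on standard medium. Values are scaled RPKM, in which each library is divided by a factor, the median over genes of its ratio to the gene's geometric mean (factors 1.08 to 1.117 on agar and 0.824 to 0.877 on standard medium). Differences are agar minus standard medium on the log2(scaled RPKM + 1) scale, with the SE from 1 limma fit that has the repeat number as a block. The standard libraries were not alike. Along the first principal component (51.3%) the agar libraries had scores from -20.5 to -11.4, standard replicate 1 scored 1.9, and standard replicates 2 and 3 scored 42.2 and 38.8. The 110 replication-dependent histone genes, whose mRNAs lack a poly(A) tail, deviated from their own medians over the 9 libraries by a median of 4.21 and 3.63 on the log2 scale in standard replicates 2 and 3. The same deviation was 0.09 in standard replicate 1 and between -0.96 and 0.53 on agar. Ribosomal RNA genes gave 4.25 and 3.70 in the same pair of standard libraries. Histone and ribosomal RNA genes together held 4.34% to 7.48% of summed RPKM on agar and 12.9%, 23.0% and 18.5% in standard replicates 1, 2 and 3. Agar replicate 3 lay apart from the other libraries on the second component (24.6%), at -34.5. The medians of several lists and some genes are therefore also given with standard replicate 1 as the only standard library, and the part of these library contrasts in the results was not tested.

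Between agar and standard medium 1156 genes differed at an adjusted p under 0.05, the threshold at which a gene is called here. Of the tested genes, 451 (5.61%) were higher on agar and 705 (8.77%) were lower. Histone and ribosomal RNA genes made up 113 of the 705, leaving 592 other genes that were lower. Changes of at least 2-fold on the log2(scaled RPKM + 1) scale were found for 87 of the genes that rose and for 135 of the 592 that fell. Most called differences were modest, with a median of 0.54 among genes that rose and -0.61 among the 592. Genes that fell were expressed at higher levels, with a median of 14.4 scaled RPKM against 9.36 for genes that rose and 5.69 for all tested genes. Among the 100 genes with the highest levels, 36 that were no histone or ribosomal RNA gene fell and 5 rose. The groups did not overlap, with every agar library above every standard library, in 1015 genes (12.6%), and with every agar library below in 977 (12.2%). Without scaling the median difference of all genes moved from 0 to 0.28, and the share of calls that were higher was 91.4%, against 39.0% with the scaling used and 53.0% under quantile normalization. All 451 genes that rose also had positive differences under quantile normalization. They were positive without scaling too, but leaving out the scaling moves differences upward, so that sign was no separate check. Of the 592 that fell 560 were negative without scaling and 578 under quantile normalization. With each of the 9 libraries left out in turn, 114 of the genes that rose and 152 of the 592 that fell were called every time. With standard replicate 1 as the only standard library, 4 genes were called higher and 2 lower.

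**Figure D1:**
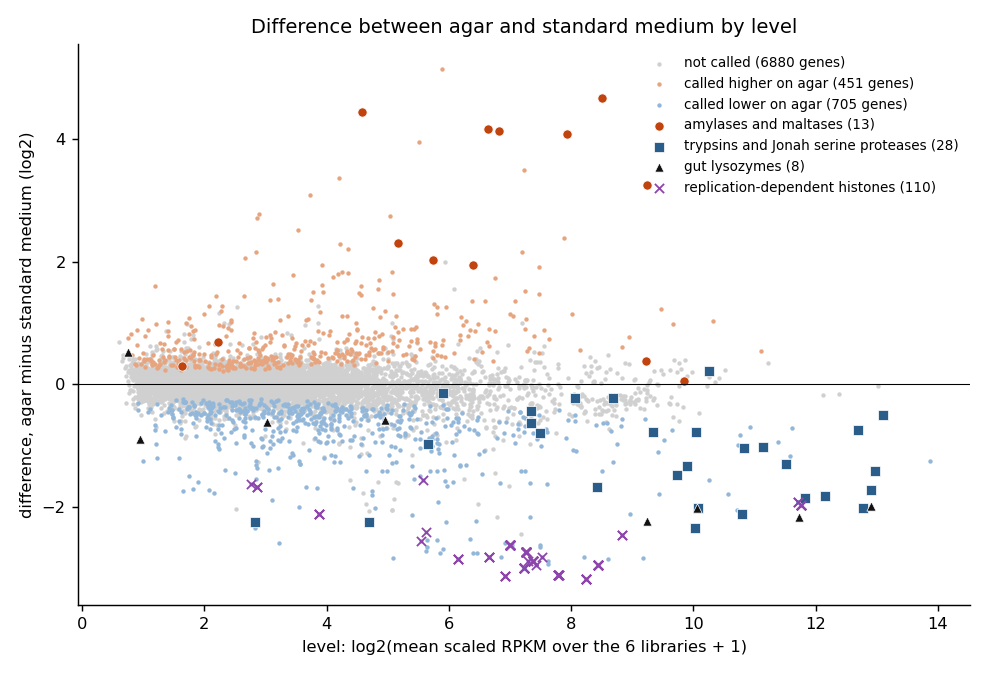
Difference between agar and standard medium (vertical axis, log2 of scaled RPKM + 1) against the level over the 6 libraries (horizontal axis, log2) for each of the 8036 tested genes, with called genes in colour and 4 gene families marked. Amylases and maltases stand above 0 up to 4.66, while trypsin and Jonah genes and lysozymes lie mostly below 0 at the highest levels, and the histone genes lie between -3.17 and -1.56.

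Most genes of the amylase and maltase families, which digest starch and sugars, were higher on agar. Of 13 tested, 10 rose (76.9%), none fell and 3 were not called, with a median difference of 2.31. The largest was in target of brain insulin (tobi), an alpha-glucosidase, which had 303, 968 and 831 scaled RPKM in the agar libraries, against 28.5, 11.9 and 39 on standard medium. The lowest agar library was far above the highest standard library, and the mean was 26.5-fold higher on agar (log2 difference 4.66 ± 0.50 (SE), adjusted p 0.00334). The amylase-related gene Amyrel had 19.7, 51 and 63.3 scaled RPKM on agar and 0.83, 0.827 and 1.03 on standard medium, so a gene close to 1 RPKM in fed guts reached a clearly higher level in all 3 agar libraries (difference 4.44 ± 0.34, adjusted p 0.00146). With standard replicate 1 alone the differences were 3.91 for tobi and 4.10 for Amyrel.

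The maltases of the Mal-A cluster cleave maltose and related oligosaccharides to glucose. Mal-A1, the cluster member with the highest level, had 539.6, 1451 and 1298 scaled RPKM on agar, against 93.7, 75.4 and 165 on standard medium (difference 3.24 ± 0.30, adjusted p 0.0021). Mal-A6 had 168, 650.5 and 566 on agar, against 16.6, 17 and 39.8 on standard medium (difference 4.08 ± 0.36, adjusted p 0.00197). Mal-A8 had 71.8, 284 and 211 on agar, against 7.15, 6.2 and 11.9 on standard medium (difference 4.17 ± 0.41, adjusted p 0.00258). In each of these genes agar replicate 1 was the lowest agar library and was still above all standard libraries. Mal-A7 differed by 4.13 ± 0.53, and Mal-A2, Mal-A3 and Mal-A4 by 1.95 ± 0.17, 2.03 ± 0.17 and 2.31 ± 0.15, all called. Mal-A5 stood apart from its neighbours at 2.51, 2.62 and 2.16 scaled RPKM on agar and 1.75, 1.96 and 1.66 on standard medium. Its groups did not overlap, but the difference of 0.30 ± 0.09 was not called (adjusted p 0.0697). Mal-B2, from another maltase group, rose by 0.69 ± 0.14 (adjusted p 0.0234), and this call was lost without agar replicate 2 or 3 or standard replicate 2 or 3 and without the replicate block.

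The amylases that split starch itself were not called. Amy-p had 1362, 1219 and 360 scaled RPKM on agar, against 1265, 610.5 and 683 on standard medium, and Amy-d had 846, 837 and 391 on agar, against 674, 410.5 and 443 on standard medium. Agar replicate 3 was the lowest of all 6 libraries for both genes, so the groups overlapped (differences 0.06 ± 0.37 and 0.39 ± 0.25, adjusted p 0.928 and 0.32, 95% intervals -0.82 to 0.94 and -0.20 to 0.98). Amy-p and Amy-d are near-identical copies whose reads can be split between them. The whole class of 14 genes held 1.16%, 2.17% and 1.69% of summed RPKM on agar, histone and ribosomal RNA genes left out, against 0.517%, 0.329% and 0.391% on standard medium. The median difference of the class was 2.04 with standard replicate 1 alone, 2.64 without scaling and 2.45 under quantile normalization.

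Glycosidases acting on other sugar linkages rose in 8 of 16 tested genes (50%) and fell in 1, with a median of 0.42 (0.32 with standard replicate 1 alone). Without standard replicate 3 the rises were 4, as they were without the replicate block, and without scaling 13 rose. CG31148 (Gba1a), a glucocerebrosidase, which removes glucose from glucosylceramide, had 42.5, 48 and 78.6 scaled RPKM on agar, against 6.27, 6.72 and 9 on standard medium (difference 2.75 ± 0.13, adjusted p 0.00033). Gal, a beta-galactosidase, had 45.9, 57.2 and 51.2 on agar, against 12.7, 12.9 and 15.6 on standard medium (difference 1.83 ± 0.10, adjusted p 0.000514). Both genes were several times higher in every agar library than in any standard library. Trehalase (Treh), which splits the blood sugar trehalose, had 53, 88.7 and 89.4 on agar, against 28.8, 33.6 and 38.4 on standard medium (difference 1.14 ± 0.16, adjusted p 0.00726). The alpha-mannosidases CG9463 and CG9465 rose by 1.48 ± 0.22 and 1.82 ± 0.27, while LM408, of the same enzyme family, fell by 0.76 on the log2 scale with 1 agar library inside the standard range. The calls of these 3 mannosidases were lost without the replicate block (adjusted p 0.154, 0.0994 and 0.0961), that of CG9465 also without standard replicate 3, and that of LM408 without agar replicate 1 or 2 or standard replicate 2 or 3 and under quantile normalization.

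**Figure D2:**
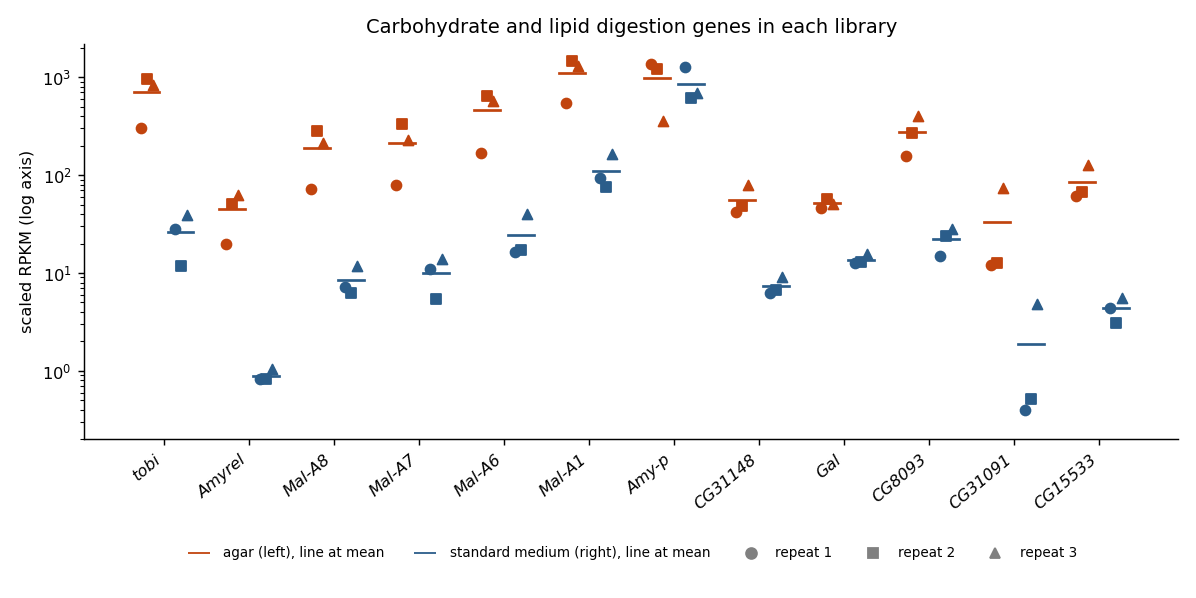
Scaled RPKM (vertical log axis) of 12 genes of carbohydrate and lipid digestion in each library, agar on the left and standard medium on the right of each gene, with a line at the mean of 3 libraries and symbols for the repeat number. All genes but Amy-p separate the diets. Amy-p ranges from 360.0 to 1362 on agar and from 610.5 to 1265 on standard medium.

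Lipase genes changed in both directions. Of 19 tested lipases 5 rose (26.3%) and 4 fell (21.1%), beside 5.61% and 8.77% of all tested genes. Their median was 0.21 (0.24 with standard replicate 1 alone). With 1 library left out 2 to 7 rose, fewest without standard replicate 3, and 1 to 4 fell, fewest without agar replicate 2 or standard replicate 3, and without the replicate block 3 rose and 2 fell. Without scaling 10 rose and 4 fell, and under quantile normalization 9 rose and 2 fell. The genes with the largest rises belong to the acid lipase family. CG8093 had 155.6, 267 and 404 scaled RPKM on agar, against 15, 24 and 28.1 on standard medium (difference 3.50 ± 0.18, adjusted p 0.00033). CG31091 had 12.2, 12.7 and 74 on agar, against 0.401, 0.522 and 4.79 on standard medium (difference 3.37 ± 0.26, adjusted p 0.00146). Repeat 3 was the highest library of each diet in CG31091, and the groups did not overlap in either gene. CG31089 rose by 2.72 ± 0.50 and Lip3 by 1.61 ± 0.25 from levels below 1 RPKM on standard medium, and both calls were lost without standard replicate 3, that of CG31089 also without agar replicate 2 or standard replicate 2 and without the replicate block. Both genes reached 1 RPKM only in the 3 agar libraries and so passed the filter through agar alone, as did 5 tested genes in all, of which 4 rose. Magro (mag), the acid lipase with the highest level, had 619, 348 and 377 on agar and 564, 452 and 617 on standard medium and was not called (-0.32 ± 0.19, adjusted p 0.282), with a positive value under quantile normalization (0.25).

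Pancreatic-type lipases, which act on dietary triglyceride, included the genes that fell. CG6295, the lipase with the highest level, had 1689, 1018 and 804 scaled RPKM on agar, against 2535, 2013 and 2086 on standard medium (difference -0.98 ± 0.18, adjusted p 0.0188). CG17192 had 526, 289 and 511 on agar, against 945, 1033 and 792 on standard medium (difference -1.10 ± 0.23, adjusted p 0.0246). Neither pair of groups overlapped, but neither gene was called under quantile normalization or without agar replicate 2 or standard replicate 2 or 3, nor was CG17192 without glucose replicate 2 or 3 or CG6295 without the replicate block. CG6296 fell by 0.85 on the log2 scale and kept its call in each of these settings. In the same family CG6277 had 147, 269 and 176 on agar, above all 3 values on standard medium (78.9, 90.5 and 118), and was not called (difference 1.0 ± 0.34, adjusted p 0.097). CG6271 had 32.7, 58.8 and 40.4 on agar, against 17, 20.4 and 25.9 on standard medium, again without overlap and not called (difference 1.0 ± 0.32, adjusted p 0.078). Both were called higher without scaling and under quantile normalization (adjusted p 0.0312 and 0.0473). The sphingomyelinase-like gene CG15533 had 61.1, 67.1 and 127 on agar, against 4.37, 3.1 and 5.57 on standard medium. Its groups were far apart (difference 3.96 ± 0.14, adjusted p 0.000135), and its relative CG15534 rose by 1.12 ± 0.10. Of 11 sterol carrier and Niemann-Pick genes 2 rose (18.2%, beside 5.61% of all tested genes), Npc2e among them (1.10 ± 0.22). Only Npc2d fell (9.09%, near the 8.77% of all tested genes), by 0.63 on the log2 scale. All 3 of those calls were lost without the replicate block, and those of Npc2e and Npc2d also without agar or standard replicate 2 or 3. Npc2d also lost its call without glucose replicate 2, without scaling (adjusted p 0.102) and under quantile normalization (adjusted p 0.694).

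Most trypsin and Jonah protease genes were lower on agar. Of 28 tested trypsins and Jonah proteases, the digestive genes with the largest share of RPKM, 20 fell (71.4%) and none rose, with a median of -1.16. Jonah genes encode serine proteases of the chymotrypsin family made in the midgut. Jon65Aiv had 4771, 2850 and 1418 scaled RPKM on agar, against 13950, 8965 and 10060 on standard medium (difference -2.01 ± 0.30, adjusted p 0.00851). Jon25Bi had 718, 801 and 492 on agar, against 2787, 2539 and 3276 on standard medium (difference -2.12 ± 0.31, adjusted p 0.00807). Jon99Fi had 709.6, 444 and 226 on agar, against 1985, 1499 and 1598 on standard medium (difference -2.02 ± 0.25, adjusted p 0.00502). Agar replicate 3 was the lowest library in each of these genes, and no agar library reached a standard library. With standard replicate 1 alone the differences were -1.93, -2.38 and -1.73.

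Further Jonah genes fell by similar amounts. Jon65Aiii had 5794, 4342 and 3257 scaled RPKM on agar, against 12880, 10800 and 10930 on standard medium (difference -1.40 ± 0.16, adjusted p 0.00414). The neighbouring serine protease gene yip7 had 5265, 3815 and 2147 on agar, against 13310, 10900 and 10630 on standard medium (difference -1.72 ± 0.21, adjusted p 0.00501). Neither gene was called under quantile normalization (adjusted p 0.376 and 0.0608). Jon25Bii had the largest difference of the class, -2.33 ± 0.37, and its call was lost without standard replicate 3 alone among the 9 libraries. Jon66Ci and Jon66Cii, at lower levels, differed by -2.24 ± 0.30 and -2.23 ± 0.19, and Jon66Ci was not called without the replicate block.

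Not every member followed. Jon99Ci had 912, 1364 and 1698 scaled RPKM on agar and 815, 1149 and 1418 on standard medium, overlapping groups with a difference of 0.22 ± 0.12 (adjusted p 0.253), and it was the single positive value in the class. Its 95% interval, -0.07 to 0.51, excluded a fall of the size seen in Jon65Aiv. The trypsin genes with the highest levels were not called. alphaTry had 9657, 7848 and 4803 on agar, against 11960, 8848 and 9819 on standard medium, and betaTry had 7142, 5317 and 2926, against 10050, 6783 and 7726 on standard medium. The highest agar library lay inside the standard range in each, and their differences (-0.50 ± 0.20 and -0.75 ± 0.24) became positive under quantile normalization (0.79 and 0.33). thetaTry had 462, 497 and 469.6 on agar, against 815, 802 and 820.3 on standard medium, with little spread within either diet (difference -0.77 ± 0.11, adjusted p 0.00722, and 0.122 under quantile normalization).

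The class as a whole took 16.9%, 14.0% and 9.51% of summed RPKM on agar, histone and ribosomal RNA genes left out, against 24.8%, 21.6% and 22.1% on standard medium. Agar replicate 3 had the lowest share and agar replicate 1 the highest of the agar libraries, below every standard library. The median difference was -1.11 with standard replicate 1 alone, -0.80 without scaling and -0.45 under quantile normalization, which called 7 members. Without standard replicate 3, 11 members were called, and 13 without the replicate block. Jonah and trypsin genes lie in tandem copies of similar sequence, so reads may be split between neighbours.

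**Figure D3:**
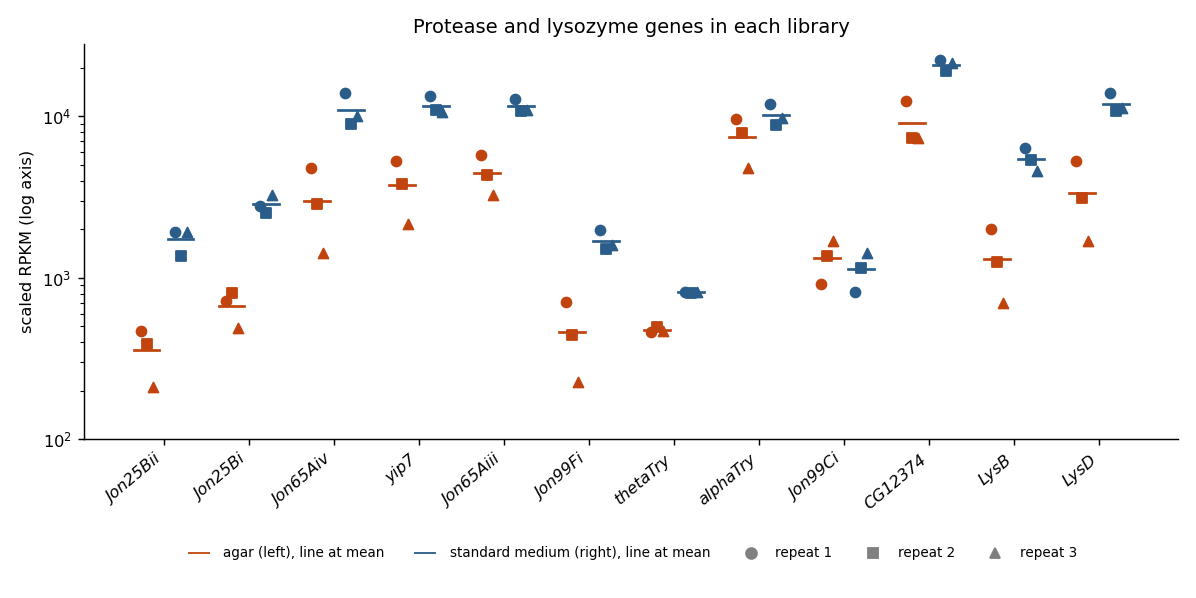
Scaled RPKM (vertical log axis) of 10 protease and 2 lysozyme genes in each library, agar on the left and standard medium on the right of each gene, with a line at the mean of 3 libraries. Agar replicate 3 (triangles) is the lowest library in most genes, while alphaTry and Jon99Ci overlap between diets.

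Other secreted peptidases fell as well, in 17 of 37 tested genes (45.9%), and none rose. The carboxypeptidase gene CG12374, which removes residues from the C terminus of peptides, had 12380, 7385 and 7345 scaled RPKM on agar, against 22240, 19180 and 21320 on standard medium (difference -1.25 ± 0.17, adjusted p 0.00696). It had the highest mean level of all tested genes in these 6 libraries, and it was not called under quantile normalization (adjusted p 0.296). The serine protease CG11911 had 983, 476 and 488 on agar, against 2096, 1625 and 1685 on standard medium (difference -1.55 ± 0.20, adjusted p 0.00517). CG15253, an astacin metalloprotease, and the serine proteases CG5246 and CG6462 fell by 1.69, 1.41 and 1.54 on the log2 scale. All 4 genes after CG12374 kept their calls under quantile normalization and without the replicate block. The list's median of -0.39 was -0.34 with standard replicate 1 alone, -0.10 without scaling, with 8 called higher and 13 lower, and -0.05 under quantile normalization, with 3 higher and 8 lower. The number lower was 9 without the replicate block and 7 to 16 with 1 library left out, fewest without agar replicate 2 or standard replicate 3. Aminopeptidases, which finish peptide digestion at the brush border, gave 4 falls (36.4%) and 1 rise (9.09%) among 11 genes. The shares of all tested genes were 8.77% and 5.61%. CG31233 had 301, 248 and 325 on agar, against 491, 576 and 648 on standard medium (difference -0.97 ± 0.13, with no call under quantile normalization, adjusted p 0.0924), and CG42335 had 11.4, 22.6 and 32.4, against 5.01, 6.85 and 8.01 on standard medium (difference 1.51 ± 0.20). The aminopeptidase median of -0.31 was 0.05 without scaling, with 3 rises and 4 falls, and 0.02 under quantile normalization, with 1 rise and 1 fall, and 1 fell without agar replicate 2.

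Gut lysozymes, which break bacterial cell walls and digest bacteria taken with food, fell in 6 of 8 tested genes (75.0%) and rose in 1. LysB had 2010, 1247 and 696 scaled RPKM on agar, against 6342, 5379 and 4588 on standard medium (difference -2.16 ± 0.23, adjusted p 0.00334). LysD had 5286, 3109 and 1680 on agar, against 13940, 10730 and 11290 on standard medium (difference -1.98 ± 0.28, adjusted p 0.00722). The lowest standard library was above the highest agar library in both genes, and agar replicate 3 was again lowest. LysD was not called under quantile normalization (adjusted p 0.0583). LysE differed by -2.0 ± 0.26 and LysC by -2.23 ± 0.43, the second without a call when agar replicate 2 or 3, standard replicate 3 or the replicate block was left out. The more distant member CG16799 had 5.48, 5.93 and 4.95 on agar, against 8.82, 9.43 and 8.18 on standard medium (difference -0.60 ± 0.07, adjusted p 0.00355). Lysozymes held 2.73%, 1.79% and 1.07% of summed RPKM on agar, against 5.67%, 5.10% and 4.79% on standard medium. Their median of -1.43 was -1.29 with standard replicate 1 alone and -0.97 under quantile normalization. LysB to LysE are near-identical and overlap mwh in the annotation, so the difference of -2.11 ± 0.26 at mwh may hold lysozyme reads.

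Most calls among sugar transporters were rises, and most among amino acid transporters were falls. Of 14 sugar transporters 4 rose (28.6%) and 1 fell (7.14%), beside 5.61% and 8.77% of all tested genes. Their median was 0.24 (0.10 with standard replicate 1 alone). Without scaling 10 rose and 1 fell. CG6484, a sugar transporter family member, had 152, 291 and 273 scaled RPKM on agar, against 42.8, 40.1 and 74.7 on standard medium (difference 2.16 ± 0.21, adjusted p 0.00229). CG1208 had 15.6, 39.5 and 44.2 on agar, against 3.98, 5.94 and 7.77 on standard medium (difference 2.21 ± 0.16, adjusted p 0.00136). Both had no overlap between diets and were lowest in agar replicate 1 among the agar libraries. CG10960 (nebu) rose by 1.38 ± 0.19, and CG14606 fell by 0.75 on the log2 scale with overlapping groups and no call without standard replicate 3 or the replicate block.

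Of 22 amino acid and peptide transporters 6 fell (27.3%) and 1 rose (4.55%), beside 8.77% and 5.61% of all tested genes. Slimfast (slif), a transporter of cationic amino acids known for amino acid sensing in the larval fat body, had 34.3, 25.8 and 28.8 scaled RPKM on agar, against 85.6, 82 and 71.7 on standard medium (difference -1.40 ± 0.10, adjusted p 0.00136). CG8785, of the proton-coupled amino acid transporter family, had 30.7, 24.7 and 32.7 on agar, against 102, 104 and 77 on standard medium (difference -1.65 ± 0.18, adjusted p 0.00345). Genderblind (gb), a glutamate and cystine exchanger subunit, had 4.19, 2.52 and 2.65 on agar, against 10.4, 10.7 and 7.37 on standard medium (difference -1.36 ± 0.12, adjusted p 0.00197). Each was lower in all agar libraries, and each kept its call under quantile normalization and without the replicate block. CG4991 fell by 1.25 on the log2 scale. CG1139, in the same family as CG8785, went the other way, with 3.32, 11.5 and 18.4 on agar, against 1.1, 1.31 and 1.38 on standard medium (difference 2.17 ± 0.37, adjusted p 0.0137), and lost its call without agar replicate 2 or standard replicate 2 or 3. The list's median was -0.14, and without scaling it was 0.15, with 8 called higher and 6 lower.

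Regulators of the response to feeding were called in both directions. The transcription factor sugarbabe (sug), which is induced by dietary sugar, had 38, 18.9 and 14.1 scaled RPKM on agar, against 106, 58.2 and 97.3 on standard medium (difference -1.91 ± 0.25, adjusted p 0.00544), and was the 1 called gene of 6 sugar-responsive regulators. All standard libraries were above all agar libraries. Of 22 insulin, FOXO and starvation-response genes 1 rose (4.55%) and 4 fell (18.2%), beside 5.61% and 8.77% of all tested genes. CG6770, related to the stress protein NUPR1, had 1059, 1111 and 1058 on agar, against 549, 493 and 592 on standard medium (difference 0.98 ± 0.12, adjusted p 0.00476). Brummer (bmm), the triglyceride lipase of lipid droplets, had 25.1, 19.1 and 25.6 on agar, against 57.2, 67.6 and 53.7 on standard medium (difference -1.32 ± 0.15, adjusted p 0.00349). The diets did not overlap, and the gene was called with each library left out in turn. Pdk1, a kinase of the insulin pathway, fell by 0.93 on the log2 scale.

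Thor, the translation repressor 4E-BP that FOXO induces, had 254, 151 and 148 scaled RPKM on agar and 216, 133 and 237 on standard medium. The groups overlapped throughout, and the difference of -0.09 ± 0.24 (95% interval -0.65 to 0.47, adjusted p 0.828) was positive without scaling and under quantile normalization. Pepck, the gluconeogenic enzyme, was not called either (-0.41 ± 0.18, adjusted p 0.169). In the TOR pathway, which couples amino acid supply to growth, 1 of 13 genes rose (7.69%, near the 5.61% of all tested genes) and none fell. Of 9 TGF-beta and activin pathway genes 1 fell (11.1%, near the 8.77% of all tested genes) and none rose. The gene that fell was the type II receptor wit (-0.59 ± 0.11, adjusted p 0.0186). Its call was lost without agar or standard replicate 2 or 3, without scaling and without the replicate block. The activin-like ligand dawdle (daw) had 11.9, 10.6 and 11.3 on agar, against 17.1, 13.4 and 19.4 on standard medium. All agar libraries were lower, but the difference of -0.51 ± 0.15 was not called (adjusted p 0.0711). Of 12 BMP pathway genes 1 rose and 1 fell (8.33% each way), beside 5.61% and 8.77% of all tested genes.

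Of 16 tested genes of fatty acid synthesis and storage 6 fell (37.5%) and 1 rose (6.25%), beside 8.77% and 5.61% of all tested genes. With 1 library left out 3 or 4 fell, whichever library it was, as 3 did without scaling or under quantile normalization and 4 without the replicate block. CG3523 (FASN1), the fatty acid synthase, had 13.7, 15.9 and 15.5 scaled RPKM on agar, against 29.4, 35.3 and 38.9 on standard medium (difference -1.14 ± 0.16, adjusted p 0.00726). Bubblegum (bgm), an acyl-CoA synthetase, had 33.9, 23.1 and 37.5 on agar, against 61.9, 52.2 and 61.2 on standard medium (difference -0.90 ± 0.11, adjusted p 0.00426). No agar library reached a standard library in either gene. Malic enzyme (Men), a source of NADPH, fell by 0.51 on the log2 scale, a call lost without scaling and under quantile normalization (adjusted p 0.174 and 0.11), whereas Men-b, another malic enzyme, had 24.5, 37.9 and 67.4 on agar, against 10.1, 7.66 and 19.6 on standard medium (difference 1.70 ± 0.23, adjusted p 0.00707). Men-b was in none of the lists and was singled out after its values were seen. The synthesis list's median of -0.28 was 0.06 without scaling and -0.07 under quantile normalization.

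Fatty acid oxidation genes gave 4 rises (12.5%) and 6 falls (18.8%) among 32, bmm included, beside 5.61% and 8.77% of all tested genes. Without scaling 15 rose and 3 fell, and under quantile normalization 5 rose and 2 fell. CG3902, an acyl-CoA dehydrogenase, had 71.8, 93.5 and 109 scaled RPKM on agar, against 36, 53.8 and 68.1 on standard medium (difference 0.81 ± 0.19, adjusted p 0.0349). Withered (whd), the carnitine palmitoyltransferase that admits fatty acids to mitochondria, rose by 0.73 ± 0.18, and CG12262 (Mcad), the medium-chain acyl-CoA dehydrogenase, by 0.79 ± 0.20. All 4 rises lost their calls without the replicate block, those of whd and CG12262 without any 1 of the 9 libraries, and that of CG3902 without any 1 of the 6 compared libraries. CG17544, of the peroxisomal acyl-CoA oxidase family, had 58, 35.4 and 31.2 on agar, against 107, 90.0 and 109.9 on standard medium (difference -1.33 ± 0.17, adjusted p 0.00502). Sorbitol dehydrogenase Sodh-1 had 10.1, 12 and 12.8 on agar, against 6.53, 4.75 and 4.22 on standard medium (difference 1.05 ± 0.16, adjusted p 0.00829), and pyruvate carboxylase CG1516 fell by 0.82 on the log2 scale, without a call when the replicate block was left out. In glycolysis 1 of 16 genes fell (6.25%) and in the TCA cycle 2 of 20 (10%), near the 8.77% of all tested genes, and none rose.

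Of 66 tested genes of the respiratory chain and ATP synthase 9 fell (13.6%, beside 8.77% of all tested genes) and 57 were not called. Differences were negative in 63, with a median of -0.59 (also -0.59 with standard replicate 1 alone). Cytochrome c (Cyt-c-p) had 123, 121 and 118 scaled RPKM on agar, against 258, 224 and 245 on standard medium, with little spread within a diet (difference -1.0 ± 0.11, adjusted p 0.00334). Without scaling 4 were called higher and 1 lower, with a median of -0.24. The number called was 0 under quantile normalization, where the median was -0.28, 2 without the replicate block, and between 1 and 18 with 1 library left out. Glutamine synthetase 2 (Gs2) had 179.5, 136 and 197 on agar, against 343, 268 and 326 on standard medium (difference -0.88 ± 0.11), and was called neither under quantile normalization nor without the replicate block.

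Detoxification enzymes gave the largest number of rises of any list, though not the largest share. Of 87 tested cytochrome P450, glutathione S-transferase and UDP-glycosyltransferase genes, 37 rose (42.5%, beside 5.61% of all tested genes) and 1 fell, with a median of 0.34. Amylases and maltases (76.9%) and other glycosidases (50%) were among the lists with larger shares. Cytochrome P450 genes, which oxidise toxins and endogenous lipids, gave 25 rises among 43 genes and no fall. Glutathione S-transferases, which couple glutathione to reactive compounds, gave 7 rises and 1 fall among 18. UDP-glycosyltransferases, which add sugars to small molecules, gave 5 rises among 26. Without the replicate block 10 of the P450 rises, 2 of the UDP-glycosyltransferase rises and none of the glutathione S-transferase rises were still called. Cyp6g1, a P450 known for insecticide resistance, had 91.7, 111 and 157 scaled RPKM on agar, against 44.2, 37.6 and 53.7 on standard medium (difference 1.37 ± 0.12, adjusted p 0.00205). Cyp4s3 had 4.98, 5.63 and 7.13 on agar, against 2.18, 1.77 and 1.59 on standard medium (difference 1.27 ± 0.15, adjusted p 0.0043). Cyp4aa1 had 8.9, 10.1 and 8.47 on agar, against 4.91, 5.39 and 4.54 on standard medium (difference 0.77 ± 0.06, adjusted p 0.00146). In all 3 every agar library exceeded every standard library, and the calls were kept under quantile normalization and without the replicate block.

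Among transferases GstE6 had 148, 180 and 265 scaled RPKM on agar, against 91.5, 90.5 and 127 on standard medium (difference 0.91 ± 0.13, adjusted p 0.00726), and GstD10 rose by 1.12 ± 0.16. Neither was called without the replicate block (adjusted p 0.0641 and 0.0672). GstD2 was the exception, with 3.41, 4.77 and 3.57 on agar, against 10.6, 7.28 and 19.8 on standard medium (difference -1.37 ± 0.29, adjusted p 0.0255), and its call was lost without agar replicate 1 or 3, glucose replicate 2 or standard replicate 1. The list took 0.825%, 1.01% and 1.34% of summed RPKM on agar, histone and ribosomal RNA genes left out, against 0.513%, 0.548% and 0.638% on standard medium. Its median was 0.26 with standard replicate 1 alone, 0.64 without scaling and 0.41 under quantile normalization. Without the replicate block 12 members rose, and between 12 and 32 did with 1 library left out.

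Digestive enzymes leave the cell through the secretory route. Of 37 tested genes of folding and secretion in the endoplasmic reticulum 14 fell (37.8%), none rose and 23 were not called, with a median of -0.37 (-0.41 with standard replicate 1 alone). The chaperone Hsc70-3 (BiP) had 69.5, 49.7 and 62.7 scaled RPKM on agar, against 131, 123 and 133 on standard medium (difference -1.09 ± 0.17, adjusted p 0.00981). Gp93, the GRP94 chaperone, had 38.6, 24.5 and 35 on agar, against 81, 55.9 and 72.3 on standard medium (difference -1.08 ± 0.17, adjusted p 0.011). The translocon genes TRAM and Sec61gamma fell by 0.79 and 0.73 on the log2 scale. Agar replicate 2 was the lowest library in the pair of chaperones, and without it their calls were lost and 2 of the 37 genes were called. With standard replicate 1 alone the Hsc70-3 difference was -1.14. Under quantile normalization 7 fell, Hsc70-3 not among them, and 7 fell without the replicate block. Without scaling 6 were called higher and 6 lower, with a median of -0.03.

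Ribosomes, proteasome and autophagy showed few or no calls. None of 84 cytosolic ribosomal protein genes, 33 proteasome genes or 22 autophagy genes passed the limma test, whereas without scaling 13, 15 and 16 of them were called higher. At an unadjusted p under 0.05 there were 1 higher and 1 lower ribosomal protein gene, 1 higher and 2 lower proteasome genes, and 4 higher and 3 lower autophagy genes. Of 74 mitochondrial ribosomal protein genes 2 fell (2.7%), below the 8.77% of all tested genes. The cytosolic ribosomal protein median of -0.27 was 0.09 without scaling and 0.26 under quantile normalization, and agar replicate 3 deviated by -0.83 from the genes' own medians. Of 33 ribosome biogenesis genes 5 fell (15.2%) and 1 rose (3.03%, beside 5.61% of all tested genes), none of them without the replicate block. Of 68 translation factors and tRNA synthetases 2 fell (2.94%), again below the 8.77% of all tested genes.

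Immune and barrier genes were called in both directions, some lists at shares near those of all tested genes (5.61% higher and 8.77% lower). Defensin (Def), an antimicrobial peptide, had 1.07, 0.932 and 0.869 scaled RPKM on agar, against 5.53, 5.39 and 5.46 on standard medium, with all libraries of a diet close together (difference -1.72 ± 0.20, adjusted p 0.0043). It was the 1 gene called among 4 antimicrobial peptides. Of 14 genes of peptidoglycan recognition, the Imd pathway and redox defence 2 rose (14.3%) and 1 fell (7.14%), and PGRP-SC2, an amidase and the list's gene with the highest level, was not called (-0.53 ± 0.23). Cht9, of the chitinase family, had 58.8, 40.5 and 65.5 on agar, against 222, 170.5 and 119.9 on standard medium (difference -1.60 ± 0.22, adjusted p 0.00707). Its values separated the diets, and among 19 mucin and peritrophic matrix genes 3 rose and 3 fell (15.8% each way). Metallothionein B (MtnB), which binds heavy metals, had 46.1, 17.7 and 23.2 on agar, against 156.4, 61.8 and 55.8 on standard medium (difference -1.57 ± 0.23, adjusted p 0.00787), a call lost without the replicate block, and 4 of 21 metal-handling genes fell and 1 rose. Heat shock and Turandot genes gave 5 falls among 20 (25%, and 1 fall without the replicate block). Enteroendocrine peptide genes gave 1 fall among 13 (7.69%), progenitor markers 1 among 10 (10%), and clock genes 1 among 11 (9.09%). The shares of the enteroendocrine, progenitor and clock lists are near the 8.77% of all tested genes.

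Some of the largest changes lay outside these classes. The gene with the largest rise, CG34040, had 17.9, 124 and 202 scaled RPKM on agar, against 1.7, 0.409 and 1.92 on standard medium (difference 5.13 ± 0.66, adjusted p 0.00559). CG3290 (Alp2), an alkaline phosphatase, had 14, 31.3 and 23.5 on agar, against 2.11, 1.82 and 1.17 on standard medium (difference 3.09 ± 0.28, adjusted p 0.00197). In both genes every agar library was several times above every standard library. CG34316 rose by 2.79 ± 0.51, with its call lost without standard replicate 2 or 3. CG30272 (MFS1), a transporter of the major facilitator family, had the largest fall by the rule for naming genes, with 30.9, 7.53 and 7.56 on agar, against 77, 84.1 and 85.4 on standard medium (difference -2.65 ± 0.38, adjusted p 0.00741). The other 11 of the 12 largest falls were copies of the histone gene His2A, of the class whose median sets standard replicates 2 and 3 apart. The rule required no overlap, so in these copies standard replicate 1 was also above every agar library. That held for 30 of the 110 histone genes.

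Further genes were chosen after their values were seen. Eip71CD (MsrA), a methionine sulfoxide reductase, had 108, 53.8 and 30.5 scaled RPKM on agar, against 292, 235 and 244 on standard medium (difference -2.16 ± 0.27, adjusted p 0.00501). The pantetheinase-like genes vanin-like and CG32751 fell by 2.13 and 1.99 on the log2 scale. Every agar library was below every standard library in these 3 genes. CG8665, a formyltetrahydrofolate dehydrogenase of folate metabolism, had 22.3, 22.2 and 46.5 on agar, against 3.69, 5.03 and 6.67 on standard medium (difference 2.30 ± 0.16, adjusted p 0.00127). smp-30, related to regucalcin, rose by 1.74 ± 0.16, and CG11891 and CG11889, of the ecdysteroid kinase-like family, rose by 1.94 ± 0.14 and 1.79 ± 0.14. CG11891 and CG11889 overlap each other in the annotation, so they may share reads and may not be separate rises. CG13215 had 13.5, 23.9 and 18.4 on agar, against 2.11, 3.59 and 1.61 on standard medium (difference 2.52 ± 0.13, adjusted p 0.00033). The diets did not overlap in any of these genes.

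**Figure D4:**
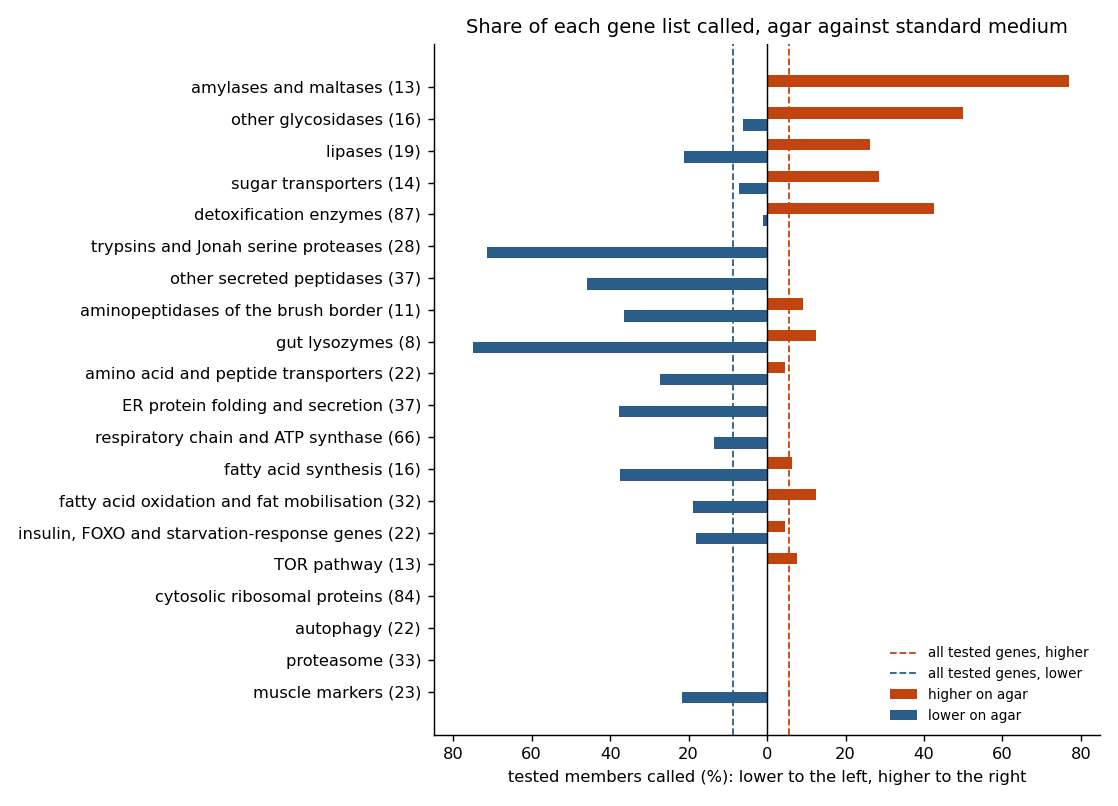
Share of tested members called higher on agar (bars to the right) or lower on agar (bars to the left) in 20 gene lists, in percent, with the number of tested members in brackets and dashed lines at the shares over all tested genes, 5.61% higher and 8.77% lower. Amylases and maltases (76.9%), other glycosidases (50%) and detoxification enzymes (42.5%) extend farthest to the right, and lysozymes (75.0%) and trypsin and Jonah genes (71.4%) farthest to the left.

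Some genes called in the same direction lay side by side. In the RefSeq gene order of the Release 6 assembly, 7554 protein-coding genes were placed and tested, and 127 of the 440 placed genes that rose (28.9%) had another such gene as their nearest tested neighbour on at least 1 side. The same held for 168 of the 551 placed genes that fell (30.5%). The share of all 7554 placed genes with such a neighbour was not computed, so no excess is read from these shares. There were 14 runs of at least 3 adjacent genes that rose, with 51 genes, and 18 runs of at least 3 that fell, with 64 genes. On chromosome arm 2R, Mal-A1 to Mal-A4 formed 1 run and Mal-A6 to Mal-A8 with CG12780 another, with the uncalled Mal-A5 between them. On arm 3L, 6 adjacent genes from yip7 to Jon65Ai fell, with differences from -2.01 to -0.78, and tan beyond them differed by 0.07. Also on 3L, LysB, LysD, LysE and LysS formed a run of falls. On arm 3R, 5 adjacent genes from Ho to CG18765 rose, among them CG6908 by 1.5. Neighbours of similar sequence can share reads, and how far that adds to these runs was not tested.

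**Figure D5:**
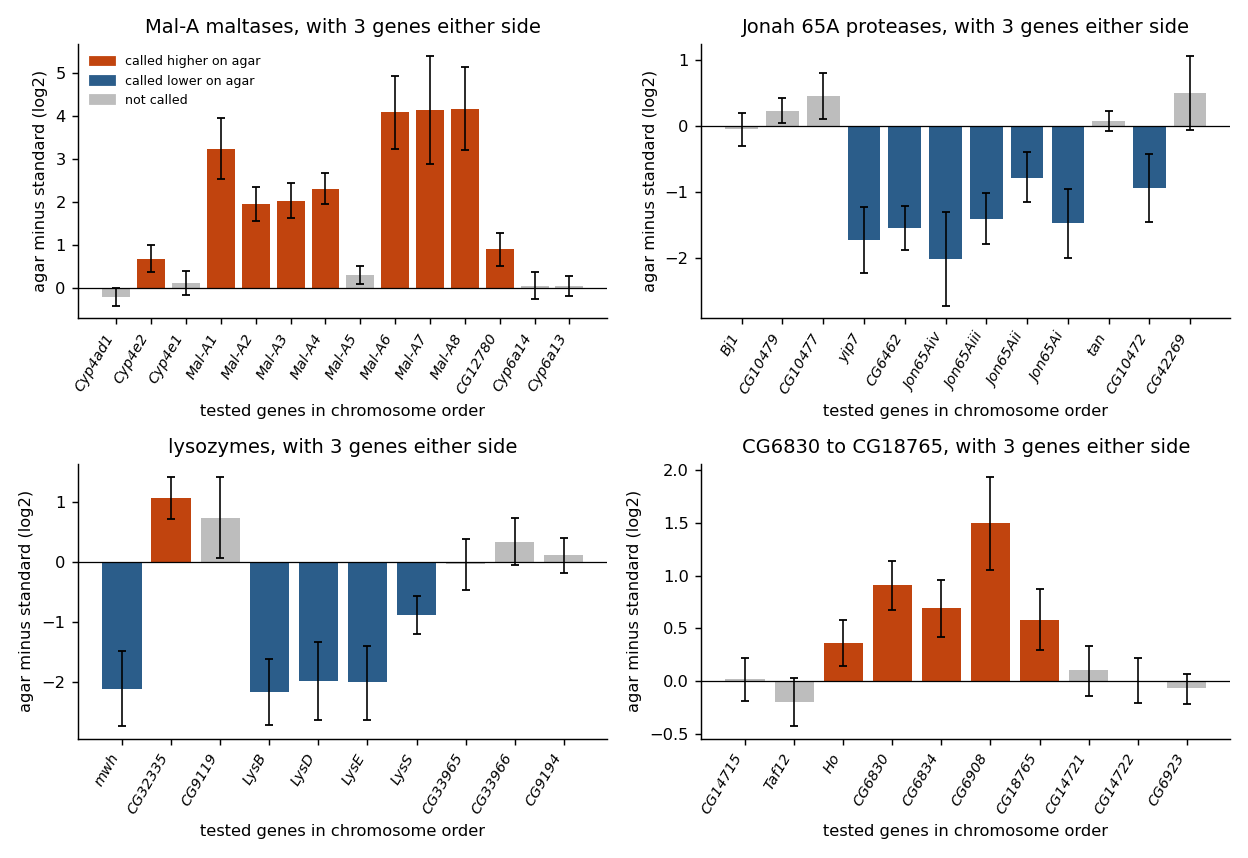
Difference between agar and standard medium (vertical axes, log2, bars with 95% confidence intervals) of adjacent tested genes in chromosome order (horizontal axes) around 4 groups of neighbours, with 3 flanking genes on each side. The Mal-A genes other than Mal-A5 lie between 1.95 and 4.17, the Jonah 65A genes and yip7 lie below -0.7, and the flanking genes lie between -2.11 (mwh) and 1.06 (CG32335), of which Cyp4e2, CG12780, CG10472, mwh, CG32335 and Ho were called.

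Agar was also set against glucose in the same model, to see where agar differs from a diet of sugar alone. This comparison shares the agar libraries with the one above, so the values are given side by side only. Over all tested genes 129 were higher on agar than on glucose (1.61%) and 62 were lower (0.772%). Of the 13 amylases and maltases 9 were higher on agar than on glucose. tobi had 303, 968 and 831 scaled RPKM on agar and 81.1, 79.8 and 74.3 on glucose, a difference of 2.98 ± 0.50 (adjusted p 0.0372), and Mal-A1 differed by 2.29 ± 0.30 (adjusted p 0.0179). The agar libraries were above all glucose libraries in both genes. CG8093 differed by 2.63 ± 0.18 and Gal by 1.72 ± 0.10, both called. Of the lipases 8 were higher on agar than on glucose and 1 was lower, and of the detoxification enzymes 12 were higher and none lower.

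Few protease genes were called between agar and glucose. Among the 28 trypsin and Jonah genes 1 was called against glucose, Jon99Ci (1.15 ± 0.12, adjusted p 0.0172), and the median was -0.29. Jon65Aiv had 4771, 2850 and 1418 scaled RPKM on agar and 4779, 5056 and 4007 on glucose. The highest agar library overlapped the glucose range, and the difference of -0.78 ± 0.30 was not called (adjusted p 0.267). LysB differed by -0.41 ± 0.23 (adjusted p 0.449) and was not called either. An uncalled difference does not show that the diets act alike. CG3290 had 14, 31.3 and 23.5 on agar and 22.5, 29.2 and 39.2 on glucose (difference -0.42 ± 0.28, adjusted p 0.517), and CG13215 differed by -0.51 ± 0.13 (adjusted p 0.118), so neither of these genes, which rose on agar against standard medium, was called against glucose.

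Markers of other tissues were set beside these results. Gut identity genes summed to 272 to 282 scaled RPKM on agar and 263 to 324 on standard medium. Of 10 tested, 1 was called, as lower (10%, near the 8.77% of all tested genes). Muscle markers summed to 651 to 875 on agar and 764 to 1013 on standard medium. Of these, 5 of 23 fell (21.7%, beside 8.77% of all tested genes), Act57B (-0.62 ± 0.13) and Mhc (-0.50 ± 0.12) among them. All 5 muscle calls were lost without the replicate block and under quantile normalization, and at most 2 were called with 1 library left out. Fat body markers summed to 239 to 353 on agar and 359 to 465 on standard medium, without overlap, and 2 of 7 fell (28.6%, beside the same 8.77%). Among them Yp2, a yolk protein, had 54.6, 18.2 and 30.7 on agar, against 114, 85.9 and 92 on standard medium (difference -1.59 ± 0.29), a call lost without agar or standard replicate 2 or 3. Lsp1gamma, a larval storage protein, had 0.60, 0.446 and 0.727 on agar, against 2.96, 6.95 and 3.41 on standard medium (difference -1.71 ± 0.24). The haemocyte marker crq rose by 0.85 ± 0.18, a call lost without the replicate block and without agar replicate 2, glucose replicate 2 or standard replicate 2 or 3, with the list summing to 26 to 51.3 on agar and 19.0 to 23.0 on standard medium. Of 11 neuron markers 2 were tested and of 6 ovary markers 1, and Malpighian tubule markers summed to 24.0 to 42.7 on agar and 23.2 to 29.4 on standard medium with none of 5 called and 1 higher at an unadjusted p under 0.05. The part of other tissues in the gene differences was not tested.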

How the data were processed

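RNA of whole guts was sequenced in 9 libraries, 3 per diet. Per the submitters' processing notes, CASAVA 1.82, Bowtie2 2.1 and limma were used. Build, annotation and strand of counting: not given in the sources used here. Values were deposited as log2 RPKM, 1 per gene, with 0.5 added to the reads, as found from the values themselves. RPKM was taken as 2 to that power, divided by a median-ratio factor, and tested as log2(scaled RPKM + 1), which understates changes of genes near 1 RPKM.

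One limma fit (limma 3.58.1, R 4.3.3) over all 9 libraries had diet and repeat number as terms, with a variance trend (4 residual and 3.04 prior degrees of freedom). Adjusted p-values are Benjamini-Hochberg values over 8036 genes, called under 0.05. Fold changes are ratios of mean scaled RPKM, and errors of differences are SE. The repeat number was used as a pairing block, and whether it marks samples handled together was not tested. In a fit without the block, residuals of libraries of different diets correlated at 0.18 to 0.59 with the same number. With other numbers they correlated at -0.53 to 0.29. These ranges overlap and are not independent of each other. The labels call the repeats biological.

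Members and gene lists were chosen with earlier results of these data known, so no list has a p. The rule named the 12 largest rises and falls with at least 10 scaled RPKM and no overlap, called list members with the 3 smallest p in each direction, the member with the highest level per list and key genes. Names matched current symbols for 7878 genes and older ones for 2198, and 169 did not match. Gene order and overlaps came from RefSeq Release 6 plus ISO1 MT and were used for names and neighbours only. The 9 values of 176 tested genes equal those of another gene, most of them histone genes, and counted once the calls are 449 higher and 612 lower. The fit was tested on simulated data. Tables and figures were made with pandas 2.3.3, NumPy 2.4.6 and Matplotlib 3.10.9 in Python 3.11.15. Raw reads were not used here. The values of 1 gene of the fatty acid synthesis list are not reported here; it stays in the counts.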

Additional observations from a re-analysis of the deposited data

How the results depend on the processing

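The 451 genes higher and 705 lower on agar stayed within 1.5 times under pseudocounts of 0.1 and 5, no filter, a filter of 5 RPKM, quantile normalization, the deposited log2 values, scaling on genes other than histone, ribosomal RNA and ribosomal protein genes, no variance trend and library weights. Without scaling 4096 were higher and 384 lower. Without the replicate block 145 were higher and 230 lower (3031 and 179 without block and scaling). The 6 compared libraries alone gave 101 and 140. With 1 of the 9 libraries left out, counts were 153 to 378 higher and 185 to 651 lower, both lowest without agar replicate 2. Standard replicate 1 as the only standard library gave 4 and 2, with that lone library assumed to vary like the other groups. Without standard replicate 1 and agar replicate 3 there were 251 and 479.

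Of the 118 genes described, 105 were called, and 80 of these kept the call without each library in turn. With the 6 compared libraries alone 34 of the 105 lost it, and 101 with standard replicate 1 as the only standard library. Signs turned in 5 uncalled genes. These were mag (0.04 without scaling, with or without block, 0.25 under quantile normalization), alphaTry (0.79) and betaTry (0.33) under quantile normalization, and Thor (0.27 without scaling, with or without block, 0.51 under quantile normalization, 0.11 with weights, -0.33 without agar replicate 1 to 0.20 without agar replicate 3, 0.06 without standard replicate 3, 0.30 without standard replicate 1 and agar replicate 3). Amy-p ranged from -0.35 without standard replicate 2 to 0.53 without agar replicate 3 (-0.12 and -0.23 without agar replicates 1 and 2), and turned to -0.23 with standard replicate 1 alone. The cause was not tested. With 3 libraries per diet, small differences of genes that vary between repeats cannot be resolved. The planned search of promoter letters was not run.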
